A study of Drosophila melanogaster with 4 samples.

Results

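The 10 genes described here encode heat shock proteins of *Drosophila melanogaster* and the transcription factor that switches on the inducible ones, and were chosen by symbol out of 13909 genes with transcripts in the quantification. They are *Hsp22*, *Hsp23*, *Hsp26*, *Hsp27* and *Hsp67Bc* (small heat shock proteins), *Hsp68* and *Hsc70-4* (Hsp70 family), *Hsp83* (the fly Hsp90), *DnaJ-1* (an Hsp40 co-chaperone) and *Hsf* (heat shock factor). RNA-seq was carried out in S2R+ cells, a line derived from late *Drosophila* embryos, in 2 wild-type libraries and 2 libraries of cells in which CRISPR had removed an enhancer inside an intron of *Notch*. In the study's methods the mutant cells were transfected with Cas9 plasmids, selected with puromycin and grown out as homozygous clones after serial dilution. None of these steps is stated for the wild-type cells. An effect of the deletion and a difference between a clone and its parent line therefore cannot be told apart in these data. The labels state no heat shock for any library. They do not say whether culture or handling before harvest was alike, so a difference in stress between the conditions was not tested. Nor do they say whether the replicates of a condition came from separate cultures or clones, so each p-value measures only the spread between these libraries.

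Heat shock proteins are chaperones that bind unfolded or partly folded proteins. Small heat shock proteins hold unfolding proteins in a soluble state without using ATP, and Hsp70 proteins then refold them in cycles of ATP hydrolysis that Hsp40 proteins start and nucleotide exchange factors complete. Hsp90 matures a set of client proteins such as kinases and steroid receptors, with its own co-chaperones. In flies a single heat shock factor gene gives the protein that forms trimers under stress and binds heat shock elements in the promoters of the inducible genes. Some family members, called cognates, are expressed at high level without any stress.

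Library depth ran from 16240543 to 29605002 estimated counts, and both mutant libraries were deeper than both wild-type libraries. *Notch* itself fell, with 160.1 and 126 CPM (counts scaled to a common library size with TMM factors) in wild-type cells against 38.1 and 35.3 in the mutant, at a log2 fold change of -1.96 ± 0.126 (SE, adjusted p = 9.46e-07). S2R+ cells resemble fly blood cells, and *srp*, which encodes their GATA factor, was detected at 45.2 to 74.8 TPM (a share of a library's transcripts corrected for transcript length). *NimC1* had at most 3 counts in each library and *eater* stayed below 0.31 TPM, so these 2 markers of mature plasmatocytes were absent or nearly so. Summed TPM of the 10 plasmatocyte markers was 174.3 and 163.6 in wild-type cells against 201.1 and 180.3 in the mutant, and of the 8 tested 3 were called lower and 3 higher. Lower were *Hml* (log2 fold change -1.79), *Col4a1* (-1.29) and *vkg* (-0.54), and higher were *crq* (1.12), *Sr-CI* (0.60) and *He* (2.75). The calls of *vkg* and *Sr-CI* ended with DESeq2, and *He* had at most 31 counts in a library. In TPM *crq* went from 73.5 and 73.85 in wild-type cells to 123.6 and 112.5 in the mutant. The *srp* gene was not called and went from 74.8 and 61.7 TPM to 50.0 and 45.2 TPM. Fat body markers summed to at most 0.553 TPM and muscle markers to at most 0.645 TPM in a library, and the 4 lamellocyte and crystal cell markers to 3.71 and 2.92 TPM in wild-type and 1.80 and 1.84 TPM in the mutant. The 4 neuronal markers summed to 14.98 and 12.2 TPM in wild-type and between 8.23 and 8.27 TPM in the mutant, nearly all of it from *elav*. The 4 germ line markers summed to 58.3 and 68.0 TPM in wild-type and 75.9 and 61.6 TPM in the mutant. Most of this came from *aub*, with 50.5 and 59.05 TPM in wild-type against 75.0 and 60.9 TPM in the mutant. Of the 3 tested genes 2 were called lower and 1, *aub*, higher. Within that list *bam* fell to 0.712 and 0.469 TPM from 7.20 and 8.16 TPM. The part of such markers in the results below was not tested. In bulk samples, fewer cells of a type and less RNA per cell cannot be told apart.

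The call required both an adjusted p under 0.05 and a log2 fold change of 0.5 or more in size, from edgeR's quasi-likelihood test over 8182 genes. All 10 heat shock genes passed the filter on low counts. Of them, 5 were called and all 5 were lower in the mutant, *Hsp22*, *Hsp23*, *Hsp26*, *Hsp27* and *Hsp68*. Among all tested genes 27.9% were called, 15.3% as lower and 12.6% as higher. By adjusted p alone 7 of the 10 were lower, against 24.2% of tested genes, the other 2 being *Hsp83* and *DnaJ-1*. The median log2 fold change of the 10 genes was -0.78, whereas that of all tested genes was -0.0037. The 10 genes were chosen with earlier results of these data known. Their excess over all tested genes is therefore a description, and not evidence of a change in the family.

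In the deposited TPM, the libraries of the mutant were below those of wild-type without overlap for all 10 genes, but the same was true of 71% of tested genes, and the median log2 ratio of all tested genes was -0.44 on that scale. In TMM-normalized CPM, 9 of the 10 genes were lower in the mutant without overlap, and *Hsf* was higher without overlap. For comparison with the 9, 37.9% of tested genes separated toward lower CPM. The share that separated toward higher CPM was not computed. The gap between the 2 libraries of a condition was at most 14.4% of their mean TPM for any of the 10 genes. The median of the 10 genes minus that of all tested genes was -0.785 in log2 TPM and -0.78 in the TMM-normalized fit.

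**Figure D1:**
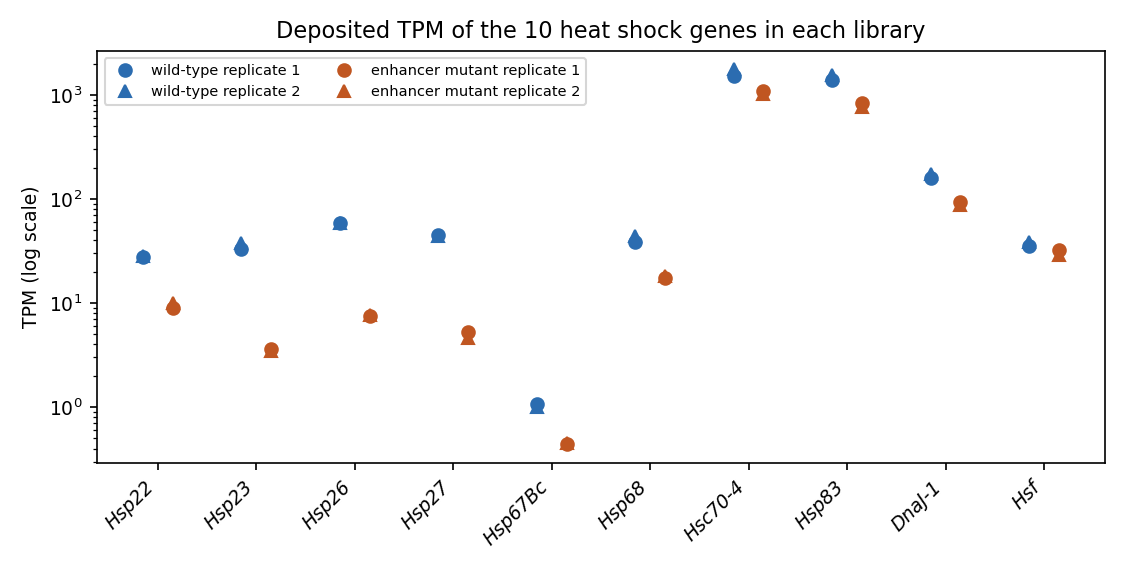
Deposited TPM (log axis) of each of the 10 genes in wild-type (blue) and enhancer mutant (orange) libraries, with circles for replicate 1 and triangles for replicate 2. *Hsp23*, *Hsp26* and *Hsp27* lie far apart between conditions, while *Hsf* lies at 35.6 and 38.3 in wild-type cells against 32.2 and 28.9 in the mutant.

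The 4 largest falls among the 10 genes were those of *Hsp23*, *Hsp27*, *Hsp26* and *Hsp22*, while *Hsp67Bc*, the remaining small heat shock gene, was not called. *Hsp23*, a cytoplasmic small heat shock protein, had 33.0 and 38.0 TPM in wild-type cells against 3.58 and 3.46 TPM in the mutant. Its normalized count was 20.7 and 23.4 CPM against 2.83 and 3.01 CPM. It fell 7.55-fold, with a log2 fold change of -2.92 ± 0.156 (SE, adjusted p = 2.53e-07), and counting itself only 146 of the 8182 tested genes had a log2 fold change as low. *Hsp27*, whose protein is found in the nucleus, had 45.2 and 44.3 TPM in wild-type cells against 5.30 and 4.60 TPM in the mutant. The fall was 6.74-fold, at -2.75 ± 0.112 on the log2 scale (SE, adjusted p = 3.14e-08), and both mutant libraries lay far under the wild-type ones.

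*Hsp26*, another cytoplasmic small heat shock protein, had the highest TPM of the 5 in wild-type cells, at 59.3 and 58.3. In the mutant it had 7.54 and 7.71 TPM, a 5.70-fold fall in normalized counts (log2 fold change -2.51 ± 0.116, SE, adjusted p = 8.22e-08). The replicates of each condition were nearly equal. *Hsp22*, a small heat shock protein of mitochondria, had 27.8 and 28.6 TPM in wild-type cells against 9.01 and 10.1 TPM in the mutant. Its fall was 2.24-fold (log2 fold change -1.16 ± 0.14, SE, adjusted p = 9.31e-05), and its interval of -1.47 to -0.85 does not reach those of *Hsp23*, *Hsp26* and *Hsp27*. In TPM it was thus the highest of these 4 genes in the mutant and the lowest of them in wild-type cells. In the annotation, exons of the neighbouring gene *CG4456* share 1900 bases with *Hsp22* on the same strand. With both genes summed the log2 fold change was -1.14. *CG4456* added only 9 and 3 counts in wild-type cells and 10 and 5 in the mutant. The sum therefore cannot show whether reads were shared. The 3 quantified *CG4456* transcripts end by 9373649. The transcript *Hsp22-RB*, with 98.35% to 100% of the TPM of *Hsp22*, starts at 9373997 and overlaps none of them.

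*Hsp67Bc*, a small heat shock protein that takes part in autophagy, was barely expressed, with 17 and 13 counts in wild-type and 12 and 11 counts in the mutant. This corresponds to 1.08 and 0.991 TPM against 0.442 and 0.449 TPM. The 2 conditions did not overlap, but the log2 fold change of -0.79 had an interval from -1.75 to 0.16 (95%, adjusted p = 0.153). A change as large as that of *Hsp22* and no change at all both lie inside this interval, so a difference was not detectable at this depth. *Hsp22*, *Hsp23*, *Hsp26* and *Hsp27* together summed to 165.3 and 169.1 TPM in wild-type cells against 25.4 and 25.9 TPM in the mutant, or 4.97% and 4.53% of the summed TPM of the 10 genes against 1.22% and 1.33%.

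**Figure D2:**
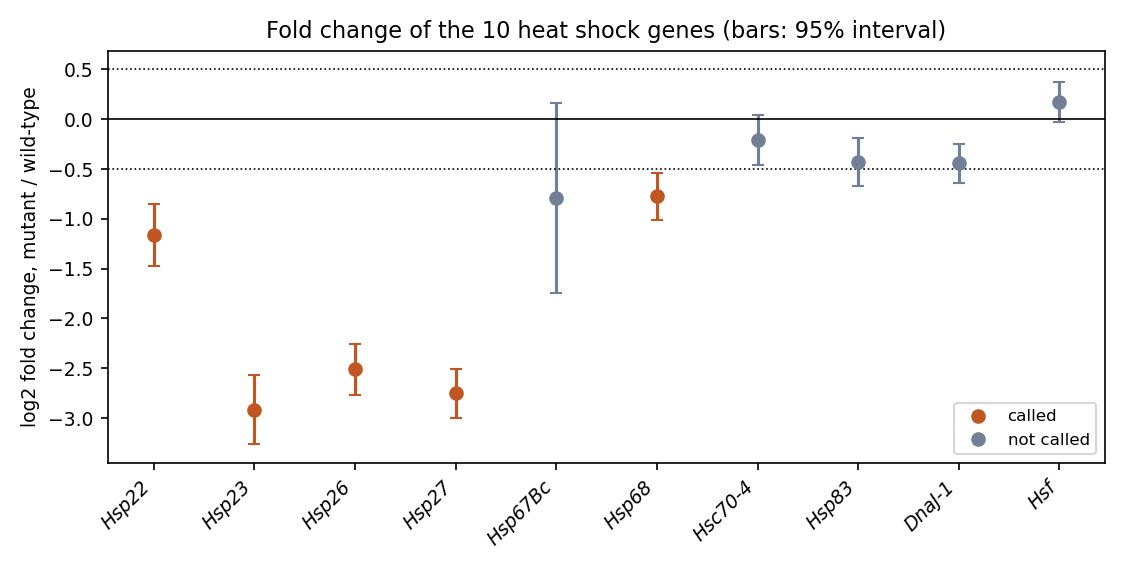
Log2 fold change of the enhancer mutant over wild-type for the 10 genes, from TMM-normalized counts with 2 libraries per condition. Bars are 95% intervals, orange marks the 5 called genes, and dotted lines mark the fold-change limit of 0.5. *Hsp23*, *Hsp26* and *Hsp27* lie between -2.92 and -2.51, whereas *Hsf* lies at 0.18 with an interval from -0.03 to 0.38.

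*Hsp68*, an inducible Hsp70 family member, had 38.5 and 44.5 TPM in wild-type cells against 17.3 and 18.2 TPM in the mutant. Its normalized count fell 1.71-fold, from 80.2 and 88.5 CPM to 45.5 and 53.1 CPM (log2 fold change -0.77 ± 0.106, SE, adjusted p = 2.22e-04). *Hsc70-4*, the constitutive Hsp70 cognate that also strips clathrin from vesicles, had the highest TPM of the 10 genes in every library. It had 1527 and 1753 TPM in wild-type cells against 1078 and 1016 TPM in the mutant, and 3285 and 3616 CPM against 2927 and 3050 CPM. The CPM of the 2 conditions did not overlap, yet the log2 fold change of -0.21 ± 0.113 was not called (SE, adjusted p = 0.151). Its interval, -0.46 to 0.04, excludes a change as large as that of *Hsp68*.

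*Hsp83* had 1399 and 1556 TPM in wild-type cells against 839.8 and 765.5 TPM in the mutant. Its CPM was 3688 and 3903 in wild-type cells against 2813 and 2826 in the mutant, again without overlap. The log2 fold change of -0.43 ± 0.11 had an adjusted p of 0.00847 but stopped short of the fold-change limit, and with library sizes alone it was -0.62 and called. *DnaJ-1* had 159.8 and 175.5 TPM in wild-type cells against 93.7 and 87.7 TPM in the mutant. Its log2 fold change of -0.44 ± 0.0892 (SE, adjusted p = 0.00229) also stayed within the limit, and it too was called with library sizes alone, at -0.64. In the main fit its size was close to that of *Hsp83*, the intervals being -0.64 to -0.24 and -0.67 to -0.19.

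*Hsf* had 35.6 and 38.3 TPM in wild-type cells against 32.2 and 28.9 TPM in the mutant, the highest ratio of mutant to wild-type TPM among the 10 genes (82.7%). In TMM-normalized counts its order was reversed, with 100.1 and 102 CPM in wild-type cells against 115.2 and 113.2 CPM in the mutant. The log2 fold change of 0.18 ± 0.0916 was not called (SE, adjusted p = 0.134), and its sign depended on the scale, being -0.019 with library sizes alone and -0.27 in deposited TPM. Heat shock factor is mainly regulated as a protein, and its activity was not measured here.

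By rank among all genes in TPM, *Hsc70-4* stood at 110 and 103 in wild-type and at 131 and 135 in the mutant. *Hsp83* stood a little lower in every library, at 114 and 109 in wild-type cells against 144 and 156 in the mutant. The levels of this pair overlapped between wild-type libraries, whereas in the mutant both *Hsc70-4* values lay above both *Hsp83* values. Both genes together made up 88.0% and 88.5% of the summed TPM of the 10 genes in wild-type cells against 91.9% and 91.7% in the mutant. By contrast, *Hsp26* moved from ranks 1934 and 2077 to 5713 and 5476, and *Hsp27* from 2498 and 2661 to 6131 in both mutant libraries.

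The Hsp70 genes outside the 10 give the family context. *Hsp70* is the strongly heat-inducible chaperone of the fly and exists in 6 nearly identical copies, between which the assignment of reads is uncertain. *Hsp70Aa* had no counts in any library, and the other 5 copies were all called lower, from -2.43 for *Hsp70Bb* to -3.98 for *Hsp70Ba*. *Hsp70Ab*, the most abundant copy in wild-type cells, had 39.8 and 46.6 TPM in wild-type cells against 4.32 and 3.67 TPM in the mutant (log2 fold change -2.99, adjusted p = 1.12e-08). With the counts of all 6 copies summed, which removes the uncertain split, 4760 and 4553 counts in wild-type stood against 1127 and 869 in the mutant. This is 232.6 and 259.8 CPM against 40.4 and 37.9 CPM, a 6.29-fold fall (log2 fold change -2.65 ± 0.103, SE, adjusted p = 2.14e-08), close in size to the falls of *Hsp26* and *Hsp27*.

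None of the 3 other tested Hsp70 cognates and Hsp110 genes was called. *Hsc70-3*, the chaperone of the endoplasmic reticulum, had a log2 fold change of 0.16, and *Hsc70-5*, that of mitochondria, had -0.33. *Hsp110*, a nucleotide exchange factor for Hsp70, had -0.40 (adjusted p = 0.00481, 4 libraries without overlap). Both *Hsc70-5* and *Hsp110* had an adjusted p below 0.05 but stayed within the fold-change limit, and with library sizes alone 2 genes of this list were called.

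Among genes of Hsp90 and its co-chaperones other than *Hsp83*, 0 of 13 tested genes were called by edgeR, with 1 lower and 2 higher by adjusted p alone, and their median log2 fold change was -0.045. Each of 4 alternatives called 1 gene of this list, namely library sizes alone, no filter on low counts and leaving out wild-type replicate 2 or mutant replicate 1. The abundant co-chaperones *p23* (0.20) and *Stip1*, which bridges Hsp70 and Hsp90 (-0.067), were not called. Of 23 tested Hsp40 genes other than *DnaJ-1*, *wus* was lower and *mrj* and *CG5001* were higher. *wus* had a log2 fold change of -0.55, *mrj* of 0.58 and *CG5001*, with 44 to 122 counts per library, of 0.67. These 3 calls were not stable, since leaving out either mutant library ended that of *wus*, library sizes alone ended that of *mrj* and leaving out any of the 4 libraries ended that of *CG5001*. Their median was 0.17. *Droj2*, the most abundant of them, was not called at -0.34.

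The chaperonins, ring-shaped folding machines of mitochondria (Hsp60) and the cytosol (TRiC), included no called gene among 10 tested, with 4 lower and 0 higher by adjusted p alone and a median of -0.19, and 2 were called with library sizes alone. The TRiC subunit *CCT5* had 468.3 and 547.7 TPM in wild-type cells against 364.1 and 366.7 TPM in the mutant, yet a log2 fold change of only -0.038 in normalized counts. *CCT1* (-0.30) and *CCT3* (-0.19) were not called either. *Hsp60B*, *Hsp60C* and *Hsp60D* had no counts in any library.

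Among the factors that exchange nucleotides on Hsp70 or hold its substrates, 3 of 6 tested genes were called, all lower. *stv*, a BAG-domain exchange factor of Hsp70 that is itself heat-inducible, was scarce, with 38 and 32 counts in wild-type cells against 8 and 10 in the mutant (log2 fold change -2.35 ± 0.401, SE, adjusted p = 8.57e-04). *HIP* and *HIP-R*, neighbouring related genes whose products bind Hsp70, fell with log2 fold changes of -1.37 and -1.26. They lie on chromosome X, 627 kb and 618 kb beyond the end of *Notch*, the locus where the deletion was made. The paper describes a domain of megabase size between the deleted enhancer and a gene desert downstream of *Notch*. Most of the differentially expressed genes in that domain were lower in this mutant. Whether *HIP* and *HIP-R* fell as part of that region was not tested. *HIP-R* had 211.1 and 215 TPM in wild-type cells against 66.4 and 64.7 TPM in the mutant, and reads could be shared between these relatives.

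Of the 3 tested regulators of heat shock factor or of heat shock loci, *Parp1* rose and the other 2 were not called. *Parp1*, which modifies chromatin at the *Hsp70* loci during activation, had 32.0 and 32.4 TPM in wild-type cells against 54.0 and 53.0 TPM in the mutant (log2 fold change 1.18 ± 0.0907, SE, adjusted p = 3.69e-06). The gene of the heterochromatin protein HP1 had a log2 fold change of 0.16 and *Daxx* of 0.18. Among 5 tested heat-inducible genes outside the chaperone families, *stv* and *Gadd45* fell. *Gadd45*, a stress-response gene, had 47.9 and 48.2 TPM in wild-type cells against 13.8 and 13.3 TPM in the mutant (log2 fold change -1.40 ± 0.0919, SE, adjusted p = 1.12e-06). The polyubiquitin gene *Ubi-p63E* (-0.34), the autophagy receptor *ref(2)P* (-0.17) and the metallothionein *MtnA* (-0.089) were not called.

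The small heat shock genes of cultured fly cells also respond to ecdysone, the steroid hormone of moulting, through the ecdysone receptor. Of 11 tested genes of that response, 4 were called lower and 2 higher, and their median log2 fold change was -0.03. *Hr4*, a nuclear receptor, was lower at -1.63 but had no more than 62 counts in a library. *MsrA* had -0.63, a call that ended without mutant replicate 1. *Eip78C*, another nuclear receptor, was higher at 1.56 and *ImpL2*, a secreted binder of insulin-like peptides, at 1.17, with 229.1 and 199.1 TPM in wild-type cells against 379 and 317.3 TPM in the mutant. The 2 other lower genes, *Eip75B* (-0.52) and *br* (-0.51), lost their calls without wild-type replicate 1, without either mutant library and with no filter on low counts, and that of *br* also ended with the replicate block and with DESeq2. The receptor gene *EcR* had 110.8 and 101.1 CPM in wild-type cells against 140.5 and 148.9 CPM in the mutant. Its log2 fold change of 0.45 (adjusted p = 0.0031) stayed within the fold-change limit. *usp*, the partner of the ecdysone receptor, had 0.097 and was not called. *Hr3*, *ImpE1* and *ImpL1* had at most 3 counts in each library.

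Over all these lists outside the 10 genes, 80 of the 95 covered genes were tested, 16 were called lower and 5 higher, and the median log2 fold change was -0.10. The called genes were 26.2% of those tested, 20.0% lower and 6.25% higher, and thus in total near the 27.9% of all tested genes.

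*Hsp67Bc*, *Hsp22*, *Hsp26*, *Hsp23* and *Hsp27* lie side by side on chromosome 3L in a cluster known by its cytological position, 67B, from 9371511 to 9385694 (dm6). *Hsp67Bc* spans 9371511 to 9372497, *Hsp22* 9372931 to 9374964 and *Hsp26* 9376418 to 9377427, followed by *Hsp23* from 9381882 to 9382765 and *Hsp27* from 9384063 to 9385694. The segment of 14.2 kb holds 9 covered genes, of which 8 were tested and 6 were called, all lower, against 15.3% of all tested genes called lower. Its limits were set by these 5 genes, and the 6 include *Hsp22*, *Hsp23*, *Hsp26* and *Hsp27*, whose calls are given above. *CG4456*, *CG4461* and *Hsp67Ba* are the listed small heat shock genes of the cluster that are not among the 10, and the 2 of them that were tested, *CG4461* and *Hsp67Ba*, were called lower at -1.56 and -1.99. *Hsp67Ba* had 61 and 72 counts in wild-type cells against 26 and 19 in the mutant (adjusted p = 4.96e-04). Its exons overlap over 1316 bases with a gene on the opposite strand that was not covered. *CG4461* had 19 counts in each wild-type library and 8 and 9 in the mutant (adjusted p = 0.0145), and its call ended with DESeq2 (highest adjusted p over the fits 0.142), without wild-type replicate 2 and without either mutant replicate. *CG4456* was too low to test, with 9 and 3 counts in wild-type cells against 10 and 5 in the mutant. *CR43483*, a single-exon gene that shares 49 exon bases with *Hsp27* on the opposite strand, had -0.79 and was not called (adjusted p = 0.0663).

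Outside the cluster, 9 of the 10 genes nearest to it were tested and 2 were called lower, both on the side of *Hsp27*. They were *CR43482* (-1.76, 6 to 34 counts per library) and *CG4080* (-0.95, adjusted p = 1.12e-04). On the side of *Hsp67Bc*, *Fdx1*, *CG4452*, *Klp67A* and *mRRF1* had log2 fold changes between -0.36 and -0.12 and none was called. Farther out on the *Hsp27* side, the translation factor *eIF4E1* was at 0.37, again within the fold-change limit. The kit is not stated to keep strand, so reads of overlapping genes on opposite strands cannot be told apart. The shared exon bases with covered opposite-strand genes were few for the 10 genes, 49 for *Hsp27*, 15 for *Hsp83* and 13 for *Hsp68*.

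Small heat shock proteins elsewhere in the genome were mostly silent. *l(2)efl*, *CG7409*, *CG13133* and *CG43851* had at most 3 counts in each library. *CG14207* was the only one tested, with a log2 fold change of 0.77 that was not called (adjusted p = 0.0553).

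**Figure D3:**
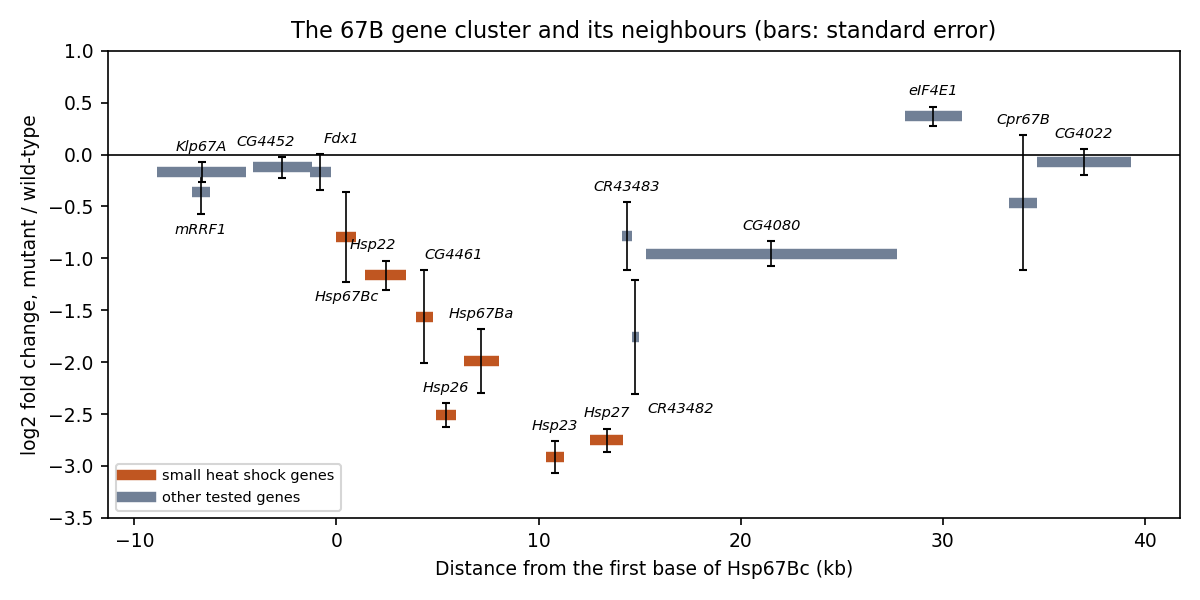
Log2 fold change of each tested gene in and around the 67B cluster against its position, as distance in kb from the first base of *Hsp67Bc*. Thick lines span the genes and bars are standard errors. *Hsp26*, *Hsp23* and *Hsp27* lie at or below -2.51, whereas *Fdx1*, *CG4452*, *Klp67A* and *mRRF1* lie between -0.36 and -0.12.

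The other 5 genes lie apart from this cluster. *Hsp83* (3192969 to 3197059) and *DnaJ-1* (5750029 to 5752189) are on 3L, *Hsp68* (24055080 to 24057310) and *Hsc70-4* (15242687 to 15246614) on 3R and *Hsf* (18130303 to 18134634) on 2R. None of the 10 lies on chromosome X. A shared structural trait is that *Hsp23*, *Hsp26*, *Hsp27*, *Hsp67Bc* and *Hsp68* have no intron in any annotated transcript. Such genes made up 9.2% of tested genes, 15.4% of them were called lower and their median log2 fold change was 0.005.

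Transcript choice was examined for the genes with several annotated isoforms, as a description with no test. In *Hsp83*, *Hsc70-4* and *DnaJ-1* a single transcript held at least 98.5% of the gene's TPM in every library. *Hsp26-RB* starts 52 bases upstream of *Hsp26-RA* and otherwise has the same extent. *Hsp26-RA* had 53.8 and 54.6 TPM in wild-type cells against 5.70 and 5.14 TPM in the mutant. *Hsp26-RB* had 5.53 and 3.73 TPM against 1.84 and 2.57 TPM. The share of *Hsp26-RB* was thus 9.32% and 6.40% in wild-type cells against 24.4% and 33.3% in the mutant, and the 2 conditions did not overlap. Only 47.9 to 84.8 estimated counts per library stand behind *Hsp26-RB*, and isoforms differing by so few bases are hard to separate.

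In *Hsf*, *Hsf-RA* was the main transcript with 65.6% and 64.7% of the TPM in wild-type cells against 70.9% and 73.0% in the mutant. *Hsf-RB* and *Hsf-RD* keep an intron of 72 bases that *Hsf-RA* lacks. *Hsf-RB* held 23.3% and 25.4% in wild-type cells against 17.7% and 13.6% in the mutant. *Hsf-RD* held 3.47% and 1.25% in wild-type cells against 2.54% and 3.78% in the mutant, so its shares overlapped. Together, *Hsf-RB* and *Hsf-RD* made up 26.8% and 26.6% in wild-type against 20.3% and 17.4% in the mutant, without overlap. For this gene and for *Hsp26*, the rate of such separation over all transcripts was not computed. Whether pre-mRNA adds to the estimates for these isoforms was not tested.

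**Figure D4:**
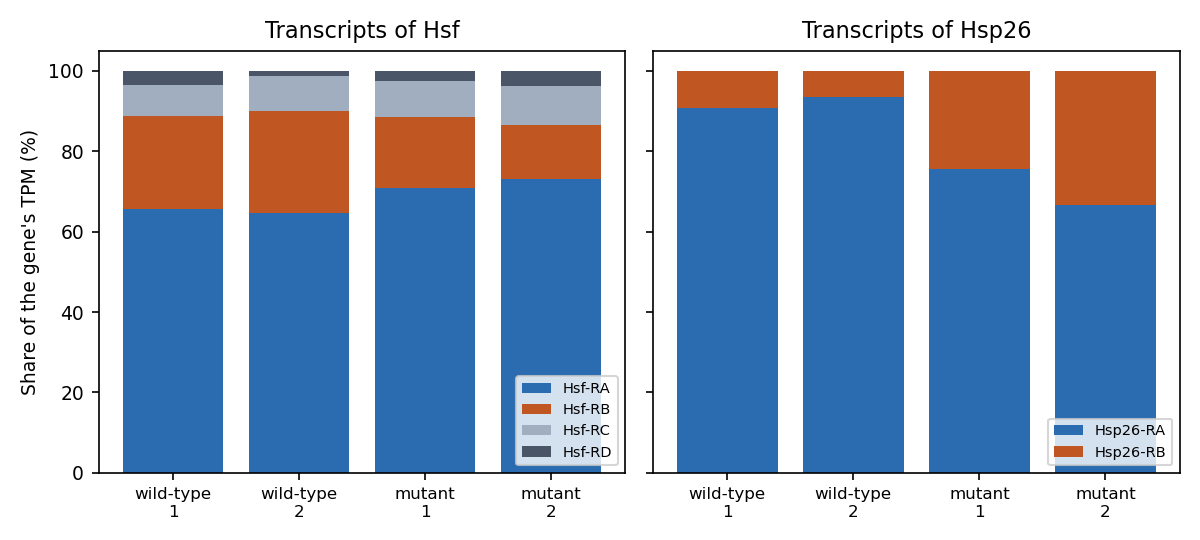
Share of the gene's TPM (%) held by each annotated transcript of *Hsf* (left) and *Hsp26* (right) in each library. *Hsp26-RB* takes 9.32% and 6.40% in wild-type cells against 24.4% and 33.3% in the mutant, and *Hsf-RB* takes 23.3% and 25.4% against 17.7% and 13.6%.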

How the data were processed

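The authors quantified transcripts with Salmon (0.10.2 in the submitters' processing notes) from paired-end reads of 150 bp, with selective alignment and GC bias correction. The authors deposited estimated counts, which are not normalized, with TPM and effective length for each transcript of each library. The TPM values deposited by the authors sum to 1000000 per library. The deposited effective lengths served only as an offset in an alternative fit. The index's annotation release is not given in the sources used here.

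Transcripts were matched to genes with Ensembl release 115 (29850 of 30070), whose counts were added up within each gene and then rounded. TPM was added up likewise. edgeR 4.0.16 in R 4.3.3 (filterByExpr, TMM, glmQLFit, glmQLFTest, Benjamini-Hochberg adjustment) compared the conditions. SE is the absolute log2 fold change over the square root of F. The test was first tried on simulated data. With 2 libraries against 2 the smallest exact permutation p is 0.333, so p-values rest on a spread shared across genes.

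The members and lists were chosen with earlier results of these data known. All 10 members were named. From each wider list the rule named at most 4 called genes with the largest fold change, at most 3 of the highest TPM, besides *Notch*, genes near or overlapping members, and those with at most 3 counts in every library. *Eip75B*, *br*, *EcR*, *CG14207*, *Daxx*, *elav*, *aub*, *bam*, *Hml*, *Col4a1*, *vkg*, *crq*, *Sr-CI* and *He* were named after their values were seen. Alternatives were other factors (RLE, upper quartile, library sizes alone), other filters, DESeq2 1.42.0, a replicate block, leave-outs and other thresholds. Promoter and protein sequences were not analysed here.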

Additional observations from a re-analysis of the deposited data

How the results depend on the processing

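The 5 heat shock genes called were called in each of the 12 other fits, and the highest adjusted p among them was 0.0149, for *Hsp68*. *Hsp83* and *DnaJ-1* were called as well with library sizes alone (-0.62 and -0.64) and with adjusted p alone. *Hsf* reversed to -0.0186 with library sizes alone and to -0.27 in deposited TPM, a setting chosen after seeing the data. The median of the 10 genes was -0.98 with library sizes alone and -1.22 in deposited TPM. With adjusted p alone, 3984 genes were called genome-wide and 39 in the wider lists, against 2285 and 21. DESeq2 called 1986. Leaving out each library, with the lone one assumed to vary like the other condition, gave 1773 to 2329. Replicate numbers are shared by the conditions, but the labels do not say that they pair the libraries. With the replicate block 2276 genes were called, 2256 of them also without it, and same-numbered libraries deviated with a correlation of 0.168. Leaving out a library moved *Hsp22* between -1.31 and -0.997 and *Hsp68* between -0.88 and -0.65. With 11 to 17 counts per library, *Hsp67Bc* had an interval too wide to show a difference.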
